A study of Mus musculus with 8 samples.

Results

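Expression at 180 min of bicuculline was compared with expression at 30 min in cultured mouse hippocampal neurons. The comparison rests on 4 arrays, 2 at each time, out of 8 arrays in all, and it covers 19938 genes, each represented by the transcript cluster (the group of probes laid along 1 transcript unit) with the highest mean signal over the 8 arrays. The neurons came from ICR mice, an outbred strain, at E17.5, late in gestation, and had been in culture for 10 days. All groups differed only in the minutes spent in 50 µM bicuculline: 0, 30, 180 or 300 min, with 2 arrays labelled as biological replicates at each time. Bicuculline blocks GABA-A receptors, so that inhibition in the culture falls and the network fires in bursts. No vehicle-treated group was among the labels, so minutes in the drug and minutes since the start of handling cannot be told apart. The labels do not say whether replicates came from separate dissections, so the tests measure how far these arrays spread, which may be technical.

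Neuronal firing lets calcium into the cell and starts transcription in waves. The first wave needs no new protein and consists of immediate-early genes, many of them transcription factors of the Fos, Jun, Egr and Nr4a families, whose short-lived messages rise and decline quickly. Later genes need more time, and many encode secreted or synaptic proteins such as growth factors, peptides and the enzymes that process them.

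Between 30 and 180 min, the activity-regulated genes Arc, Npas4, Btg2, Egr1, Egr2 and Dusp1 fell and Lipg, Pcsk1, Bdnf and Gpr3 rose. The amylase gene Amy1 and the noncoding RNA genes Mir377, Mir539, Mir495, Snhg11 and Rian were also among the largest increases. In all, 100 of 19938 genes differed (0.502%, limma, adjusted p under 0.05), of which 66 were higher at 180 min (0.331%) and 34 were lower (0.171%). Of the higher genes, 12 changed at least 2-fold, and of the lower genes 10 did. For each of the 100 genes the arrays of one time lay wholly above those of the other, which also held for 40.6% of all genes tested. The median log2 change of all genes was −0.01.

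**Figure D1:**
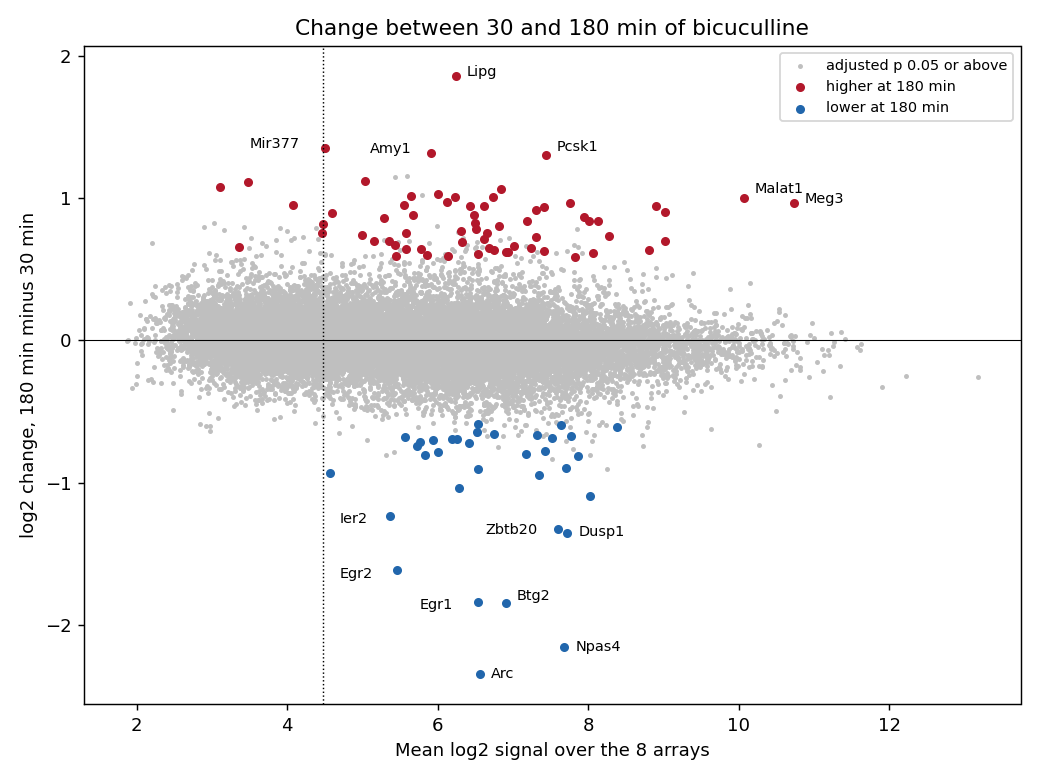
Each point is 1 of 19938 genes, with its mean log2 signal over the 8 arrays on the x axis and the log2 change, 180 min minus 30 min, on the y axis. Red points are the 66 genes that were higher and blue points the 34 that were lower (limma, adjusted p under 0.05), and the dotted line at 4.47 is the 95th percentile of olfactory receptor genes. Arc (−2.35) and Lipg (1.86) lie at the extremes.

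The number of arrays limited the precision. Array medians lay between 4.84 and 4.88 on the log2 scale, and replicates correlated at r = 0.990 at 30 min and 0.985 at 180 min across rows. Olfactory receptor genes, which these cells are not known to use, had a 95th percentile of 4.47, taken here as a mark of background. Below it lay 5 of the higher genes and 0 of the lower ones by their mean over all arrays. All 10 pan-neuronal markers measured were above that mark. The same held for 10 of 10 astrocyte, 7 of 9 oligodendrocyte lineage, 7 of 10 microglial, 6 of 10 endothelial and mural, 5 of 7 meningeal fibroblast, 7 of 9 dividing progenitor and 1 of 2 erythrocyte markers. Those at or below it included P2ry12 and Tmem119 of microglia, Pecam1 and Cdh5 of endothelium, Mag of oligodendrocytes and Alas2 of red cells. Of all markers of 11 cell types, 1 passed, the dentate granule cell marker Prox1 (−0.74).

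Summed marker signals did not overlap between the 2 times for 6 of the 11 cell classes, of which 2 were higher and 4 lower at 180 min. The same held for 40.6% of all genes taken singly, and whether the mix of cells changed was not tested. The 10 astrocyte markers summed to 10.10 to 10.20 at 30 min and 9.95 to 10.09 at 180 min on the log2 scale, and the 9 dividing progenitor markers to 10.23 to 10.28 and 10.49 to 10.65. Inhibitory neuron markers summed to 11.52 to 11.55 and 11.65 to 11.68, excitatory neuron markers to 11.53 to 11.55 and 11.49 on both arrays, and pan-neuronal markers to 13.41 to 13.44 and 13.25 to 13.30. Dentate granule cell markers, the sixth class, were also lower, and the sums of the other 5 classes overlapped. The part of these differences in the changes below was not tested either. In bulk RNA, fewer cells of a type and less RNA per cell cannot be told apart.

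Arc, which encodes a protein of synaptic plasticity that moves to dendrites, had the largest decrease. Its log2 signals were 8.28 and 8.27 at 30 min and 5.77 and 6.08 at 180 min, a 5.09-fold decrease (log2 change −2.35 ± 0.13 SE, limma adjusted p = 9.70e-07). The 180 min arrays lay around the 0 min arrays, at 5.84 and 5.94. Npas4, a transcription factor gene that is induced by calcium entry in neurons, went from 9.67 and 9.72 to 7.65 and 7.43 (−2.16 ± 0.14 SE, 4.45-fold lower, limma adjusted p = 3.52e-06). Unlike the Arc arrays, both Npas4 arrays at 180 min stayed above the 0 min arrays, at 5.67 and 5.96, and those at 300 min were 7.54 and 7.83.

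Of the zinc finger genes of the Egr family, Egr1, Egr2 and Egr4 fell. Egr1 went from 7.72 and 7.87 to 6.10 and 5.81 (−1.84 ± 0.13 SE, limma adjusted p = 6.88e-06), so that both 180 min arrays were below the 0 min arrays, at 6.47 and 6.49. Egr2 went from 6.61 and 6.60 to 5.06 and 4.92 (−1.62 ± 0.13 SE, 3.07-fold lower), and Egr4 from 7.33 and 7.34 to 6.62 and 6.24 (−0.90 ± 0.15 SE). Both Egr4 arrays at 180 min were above those of 0 min, at 6.08 and 5.89, whereas for Egr2 the arrays of these times overlapped. Egr3 had a log2 change of −0.46 (limma adjusted p = 0.256).

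Among the AP-1 genes, whose products pair as Fos-Jun dimers, Junb (−1.04 ± 0.17 SE), Fos (−0.94 ± 0.15 SE) and Jun (−0.90 ± 0.12 SE) fell. Fos signals were 8.43 and 8.49 at 30 min and 7.65 and 7.38 at 180 min, and both later arrays stayed above those of 0 min, at 6.11 and 6.23. Jun went from 8.36 and 8.24 to 7.43 and 7.37, below its 0 min arrays at 7.66 and 7.67. Fosb did not pass: its arrays were 7.91 and 7.97 at 30 min and 8.11 and 7.29 at 180 min, which overlap (−0.24 ± 0.22 SE, limma adjusted p = 0.788). Fosl2, which encodes another Fos-related protein, went the other way, from 7.77 and 7.70 to 8.40 and 8.31 (0.62 ± 0.11 SE, limma adjusted p = 0.0323).

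Of the orphan nuclear receptor genes, Nr4a1 fell from 9.04 and 9.14 to 8.14 and 7.86 (−1.09 ± 0.15 SE, limma adjusted p = 0.00484). Nr4a2 and Nr4a3 had log2 changes of 0.63 and 0.50 and did not pass (limma adjusted p = 0.281 and 0.186). The next gene beside Nr4a1 in the RefSeq order of the genes tested is Grasp, which rose by 0.97. Whether the nuclear receptor genes differed from one another in their change was not tested.

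Antiproliferative genes and phosphatases that restrain MAP kinases were also among the lower genes. Btg2, an antiproliferative gene that also helps to shorten messenger RNA tails, went from 8.28 and 8.27 to 6.61 and 6.24 (−1.85 ± 0.14 SE, 3.6-fold lower, limma adjusted p = 7.57e-06), around its 0 min arrays at 6.33 and 6.52. Dusp1, a phosphatase gene that switches off MAP kinases, went from 8.69 and 8.71 to 7.24 and 7.46 (−1.35 ± 0.12 SE, limma adjusted p = 8.95e-05), close to 7.33 and 7.49 at 0 min. The nuclear protein gene Ier2 went from 6.28 and 6.26 to 5.10 and 4.98 (−1.23 ± 0.12 SE). The related genes Gadd45g (−0.78), Dusp6 (−0.67) and Tob1 (−0.60) fell by less, and Gadd45b (−0.59) did not pass (limma adjusted p = 0.215).

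**Figure D2:**
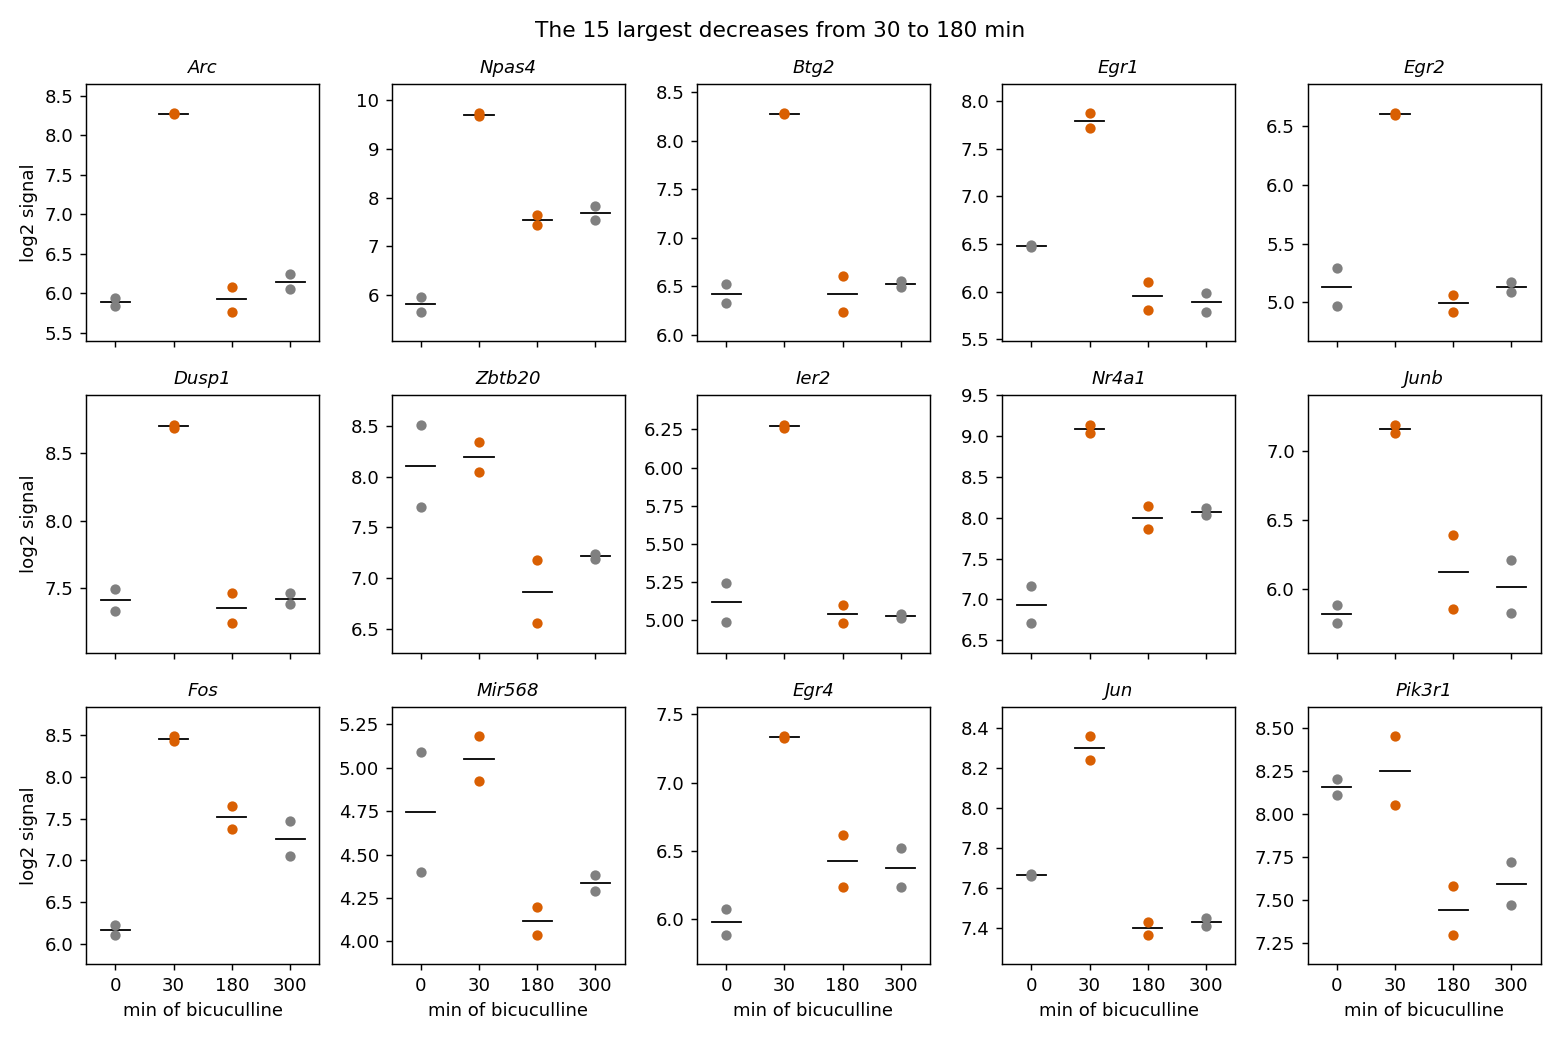
Log2 signal of each array against minutes of bicuculline for the 15 largest decreases from 30 to 180 min, with 2 arrays per time as points and their mean as a bar. Orange points are the times compared. In Arc, Btg2, Egr2, Dusp1 and Ier2 the 180 min arrays overlap those of 0 min, though both Arc arrays at 300 min (6.24 and 6.06) lie above them. Npas4, Nr4a1 and Fos stay above the 0 min arrays at 180 and 300 min, and Zbtb20, Mir568 and Pik3r1 were not raised at 30 min.

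Of the 15 lower genes in that plot, 7 still passed whichever of the 8 arrays was left out: Arc, Npas4, Btg2, Egr1, Egr2, Dusp1 and Ier2. The other 8 did not pass in at least 1 of these fits, and their highest limma adjusted p lay between 0.066 (Jun) and 0.463 (Mir568), in each case without 1 of the 30 min arrays. For example, Nr4a1 reached 0.0826 and Fos 0.132 without 30 min replicate 2, and Junb 0.182 and Egr4 0.163 without 30 min replicate 1.

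The 34 lower genes fell into 2 groups by whether the 0 min mean lay nearer to the 180 or to the 30 min mean. In 15 genes it lay nearer to 180 min: Arc, Btg2, Dusp1, Dusp6, Egr1, Egr2, Egr4, Fos, Gadd45g, Ier2, Jun, Junb, Npas4, Nr4a1 and Tob1. All 15 are protein coding, and in all 15 both 0 min arrays lay below both 30 min arrays, which the grouping favours. Relative to 0 min, their median log2 level was 1.35 at 30 min, 0.03 at 180 min and 0.10 at 300 min. At 180 min the levels ranged from −0.52 for Egr1 to 1.73 for Npas4.

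In the other 19 lower genes the 0 min mean lay nearer to the 30 min mean. Their median level relative to 0 min was 0.02 at 30 min, −0.68 at 180 min and −0.56 at 300 min. Among them were Zbtb20, Trps1, Prox1, Klf7, Zhx1 and Prdm8, which encode DNA-binding regulators, the histone methyltransferase genes Kmt2c and Nsd1, the Wnt ligand gene Wnt7a, the TGF-beta receptor gene Tgfbr1 and Tnrc6b, whose product works with Argonaute in silencing by microRNAs. Pik3r1, a regulatory subunit of PI3 kinase, Slc24a2, a sodium-calcium exchanger, Cabp7, a calcium-binding protein, and Raver2, Narf, Zc3h4, D10Wsu102e and Mir568 made up the rest. None of the 19 kept the call without each array in turn, with highest limma adjusted p between 0.169 and 0.492, all without a 30 min array.

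Zbtb20, a repressor gene of hippocampal neuron development, had the largest change of this group. It went from 8.34 and 8.05 to 6.56 and 7.18 (−1.32 ± 0.23 SE, limma adjusted p = 0.0191, and 0.301 without 30 min replicate 1). Its 0 min arrays were far apart, at 8.51 and 7.70, and another transcript cluster of the gene had a change of −0.44. Mir568, a microRNA gene of the same group, went from 5.18 and 4.92 to 4.04 and 4.20 (−0.93 ± 0.18 SE). Both 180 min arrays of Mir568 lay below the background mark of 4.47.

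Pik3r1 went from 8.05 and 8.45 to 7.30 and 7.58 (−0.81 ± 0.15 SE). Wnt7a went from 6.20 and 6.30 to 5.54 and 5.35 (−0.81 ± 0.13 SE), Nsd1 from 7.62 and 7.50 to 6.79 and 6.73 (−0.80 ± 0.13 SE) and Prox1 from 6.21 and 6.10 to 5.43 and 5.39 (−0.74 ± 0.12 SE). Prox1 marks granule cells of the dentate gyrus, and the summed signal of 7 dentate markers, itself included, was 8.85 at 30 min and 8.68 to 8.73 at 180 min. Trps1 (−0.72) and Kmt2c (−0.70) went from 6.13 and 5.94 to 5.23 and 5.40 and from 6.26 and 6.17 to 5.46 and 5.57. A further cluster of Trps1 had a change of −0.44.

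These 2 groups of lower genes differed in the length of genome they cover. The 15 genes with 0 min nearer to 180 min had a median span of 3.49 kb (1.52 to 20.9 kb), and the 19 others 61.7 kb (0.083 to 758.7 kb), beside 17.7 kb over all genes with a RefSeq span. Over all genes split into 5 equal groups by span, the median log2 change from 30 to 180 min was 0.02 in the group of up to 4.35 kb and −0.06 in the group from 59.5 kb. With the trend by span subtracted, 68 genes were higher and 28 lower (limma).

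Lipg, which encodes endothelial lipase, a secreted lipase, had the largest increase. Its log2 signals were 5.21 and 5.41 at 30 min and 7.06 and 7.27 at 180 min, a 3.63-fold increase (1.86 ± 0.13 SE, limma adjusted p = 3.52e-06). The 300 min arrays were at 7.34 and 7.37 and the 0 min arrays at 5.16 and 5.15, so the later pair of times stood apart from the earlier pair with no overlap. The 10 endothelial and mural markers summed to between 7.98 and 8.07 on the 4 arrays, with overlap between the times.

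Genes of peptide processing and release rose as well. Pcsk1, a convertase that cuts prohormones and proneurotrophins, went from 6.78 and 6.61 to 7.78 and 8.22 (1.30 ± 0.14 SE, 2.47-fold, limma adjusted p = 5.72e-04). Both 180 min arrays of Pcsk1 lay above, and both 30 min arrays below, those of 0 min at 6.95 and 6.93. Penk, the enkephalin precursor gene, went from 5.55 and 5.28 to 6.23 and 6.65 (1.03 ± 0.16 SE, limma adjusted p = 0.0109). Scg2, a granin of dense-core vesicles, went from 7.52 and 7.59 to 8.07 and 8.21 (0.59 ± 0.12 SE), and Adcyap1, the gene of the peptide PACAP, from 5.44 and 5.53 to 6.01 and 6.15 (0.60 ± 0.12 SE). These were the 4 members that passed among 24 measured genes of neuropeptides, granins and convertases (median log2 change 0.17), and the count was 1 or 2 without any 1 of the 30 and 180 min arrays.

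Bdnf, a neurotrophin gene induced by firing, went from 6.30 and 6.22 to 7.16 and 7.38 (1.01 ± 0.13 SE, 2.01-fold, limma adjusted p = 0.00192). Inhba, an activin subunit gene, went from 5.01 and 4.93 to 5.62 and 6.21 (0.95 ± 0.16 SE). The 180 min arrays of Inhba were further apart than those of Bdnf. No other of 20 measured neurotrophin and growth factor genes passed, and the median of that list was 0.06. Nrn1, which encodes the membrane-anchored neurite factor neuritin, went from 8.49 and 8.12 to 9.09 and 9.41 (0.94 ± 0.15 SE). Kif18a, a kinesin gene next to Bdnf in the RefSeq order of the genes tested, was also higher (0.82 ± 0.14 SE). Its mean signal of 4.47 was close to the background mark, and whether the changes of these neighbours are linked was not tested.

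Receptors and synaptic scaffolds followed. Gpr3, a receptor that signals to adenylyl cyclase without a ligand, went from 5.69 and 5.71 to 6.78 and 6.64 (1.01 ± 0.12 SE, limma adjusted p = 8.04e-04), and Grasp, a scaffold that binds group I metabotropic glutamate receptors, from 5.60 and 5.63 to 6.62 and 6.56 (0.97 ± 0.12 SE, limma adjusted p = 0.00181). Homer1, whose short form is induced by firing and loosens the postsynaptic scaffold, went from 6.69 and 6.70 to 7.58 and 7.48 (0.84 ± 0.12 SE). In these genes the arrays of 30 min lay close to those of 0 min. Grasp and Homer1 were the 2 of 28 measured genes of glutamate receptors and their scaffolds that passed (median −0.03). Acan (0.88), the core protein gene of perineuronal nets, and Nptx2 (0.62), a secreted pentraxin that gathers AMPA receptors, rose too.

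Other regulators rose from 30 to 180 min. Fezf2, a transcription factor gene of projection neurons, went from 7.26 and 7.31 to 8.18 and 8.33 (0.97 ± 0.12 SE, limma adjusted p = 0.00192, and 0.0523 without 30 min replicate 1). Spry2, an inhibitor of growth factor signalling, went from 7.50 and 7.44 to 8.22 and 8.45 (0.86 ± 0.14 SE), and the clock gene Per1 from 7.04 and 6.92 to 7.75 and 7.66 (0.72 ± 0.12 SE). None of these arrays overlapped between the 2 times. The kinase gene Sgk1 (0.66), Rgs2 (0.64), which shortens G protein signals, and the Ets factor genes Etv3 (0.69) and Ets2 (0.62) rose by less.

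Other higher genes were on none of the lists described here. Ccnf, a cyclin gene of ubiquitin ligases, went from 4.89 and 4.81 to 5.70 and 5.71 (0.86 ± 0.12 SE, limma adjusted p = 0.00456), Hunk, a kinase gene, from 6.16 and 6.18 to 6.89 and 7.09 (0.82 ± 0.12 SE) and Rnft1, a RING finger gene, from 5.99 and 6.06 to 7.10 and 6.85 (0.95 ± 0.13 SE). Of these, Ccnf and Hunk had 0 min arrays close to those of 30 min, at 4.73 and 4.83 and at 5.95 and 6.02. Fam126b (0.93), Lonrf3 (0.89), Ifrd1 (0.84), a transcriptional coregulator gene, Osgin2 (0.76), Crybg3 (0.76), the lysosomal galactosidase gene Gla (0.71), Rdh10 (0.63), which makes retinal, and Crhbp (0.59), whose product binds the peptide CRH, rose too. The olfactory receptor gene Olfr963 (0.65) also passed, at 3.32 and 3.24 and then 3.98 and 3.89, all below the background mark. These genes all lost the call without at least 1 of the 30 min arrays.

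**Figure D3:**
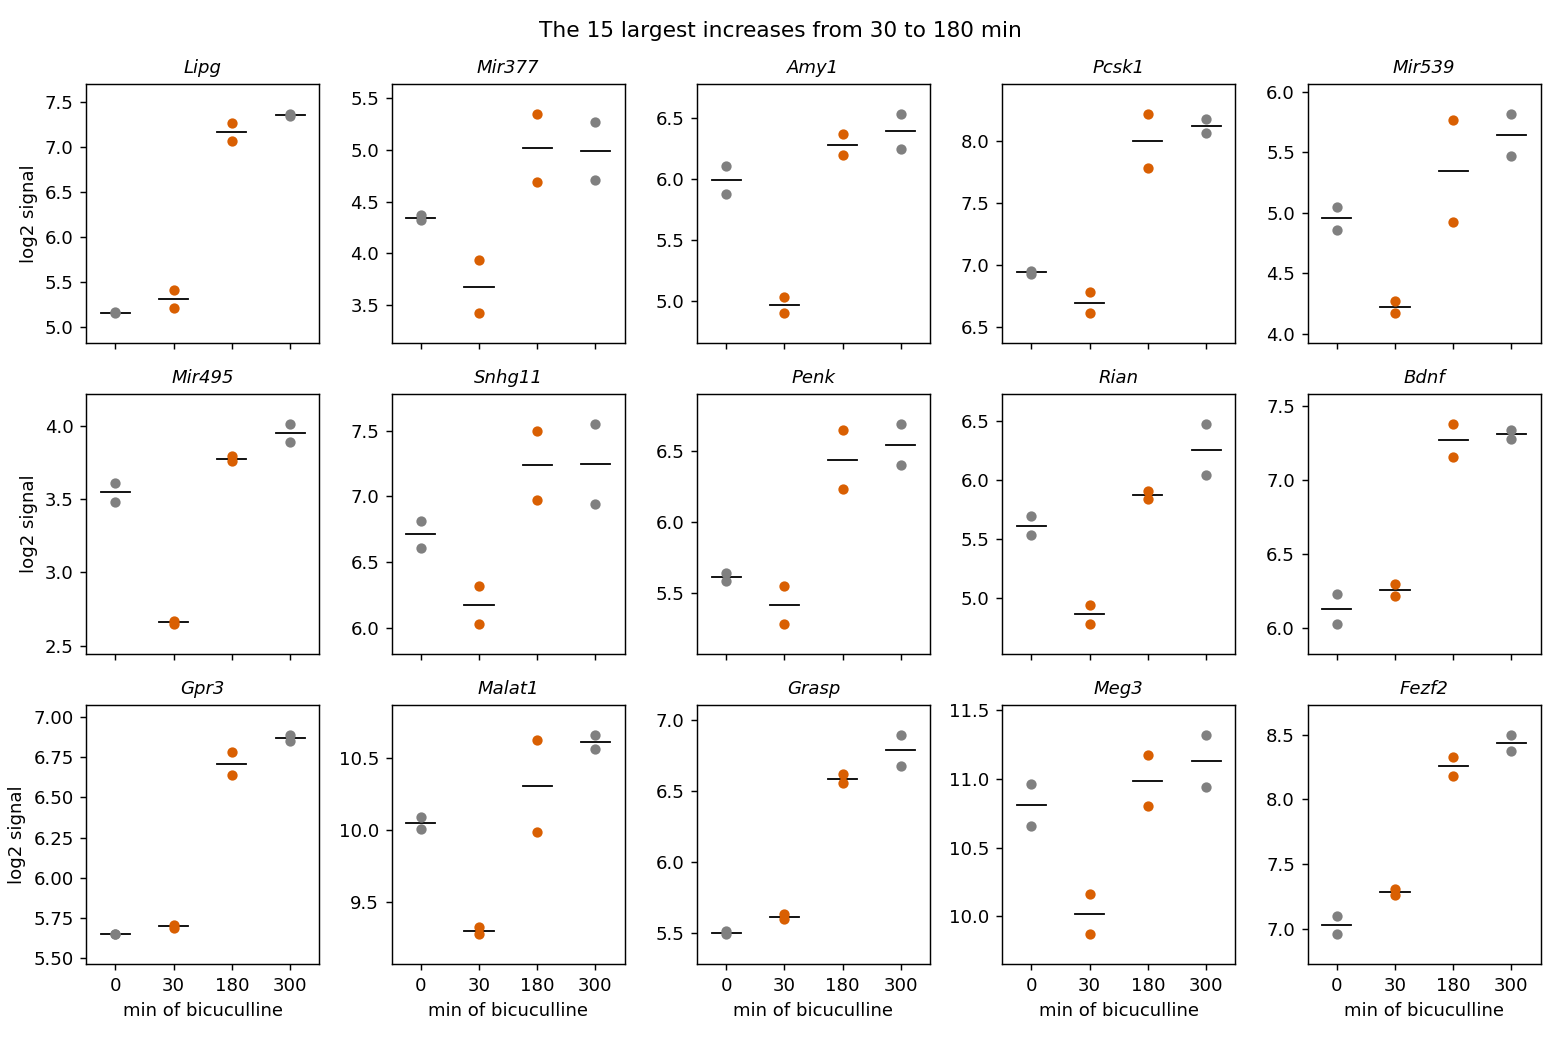
Log2 signal of each array against minutes of bicuculline for the 15 largest increases from 30 to 180 min, with 2 arrays per time as points and their mean as a bar. Orange points are the times compared. Lipg, Bdnf, Gpr3, Grasp and Fezf2 start from near the 0 min signal at 30 min, whereas Amy1, Mir495, Mir539, Malat1, Meg3, Rian and Snhg11 lie below it at 30 min.

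Of the 15 higher genes in that plot, Lipg, Amy1, Pcsk1, Mir495, Bdnf, Gpr3 and Grasp still passed whichever of the 8 arrays was left out. The other 8 did not pass in at least 1 of these fits, and their highest limma adjusted p lay between 0.0523 (Fezf2) and 0.404 (Snhg11), in each case without 1 of the 30 min arrays. Of all 100 genes, 14 kept the call without each array in turn, and these are the 7 named here and the 7 named among the lower genes. The call of the other 86 was lost at highest limma adjusted p from 0.0523 to 0.519, all without a 30 min array. When all 35399 rows were tested, rows with several gene symbols or none included, 9 genes kept the call: Arc, Npas4, Btg2, Egr1, Egr2, Dusp1 and Ier2 lower, and Lipg and Mir495 higher.

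In 46 of the 66 higher genes, the 0 min mean lay nearer to the 30 min mean, and over all genes 59.1% had it nearer to 30 than to 180 min. The median level of the 46 genes relative to 0 min was −0.12 at 30 min, 0.70 at 180 min and 0.77 at 300 min. The 46 included 3 genes, Mir377 (−0.67), Scarna17 (−0.39) and E2f5 (−0.35), whose level at 30 min relative to 0 min was lower than that of Ccnl2 (−0.33) on the other side, and Mir377 lay almost midway (0.68 at 180 min). In the other 20 the 0 min mean lay nearer to the 180 min mean. In all 20 both 0 min arrays lay above both 30 min arrays, which the grouping favours. Of these genes, Amy1 and Mir495 passed between 0 and 30 min (limma adjusted p = 0.0042 and 0.0039). Malat1, Meg3, Rian and Snhg11 did not (limma adjusted p = 0.283, 0.237, 0.129 and 0.897). The median level of these 20 genes was −0.58 at 30 min, 0.26 at 180 min and 0.45 at 300 min relative to 0 min. The range over the 20 genes was −1.03 to −0.33 at 30 min and 0.10 to 0.53 at 180 min, so that, as the grouping requires, most of each difference lay below the 0 min level.

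**Figure D4:**
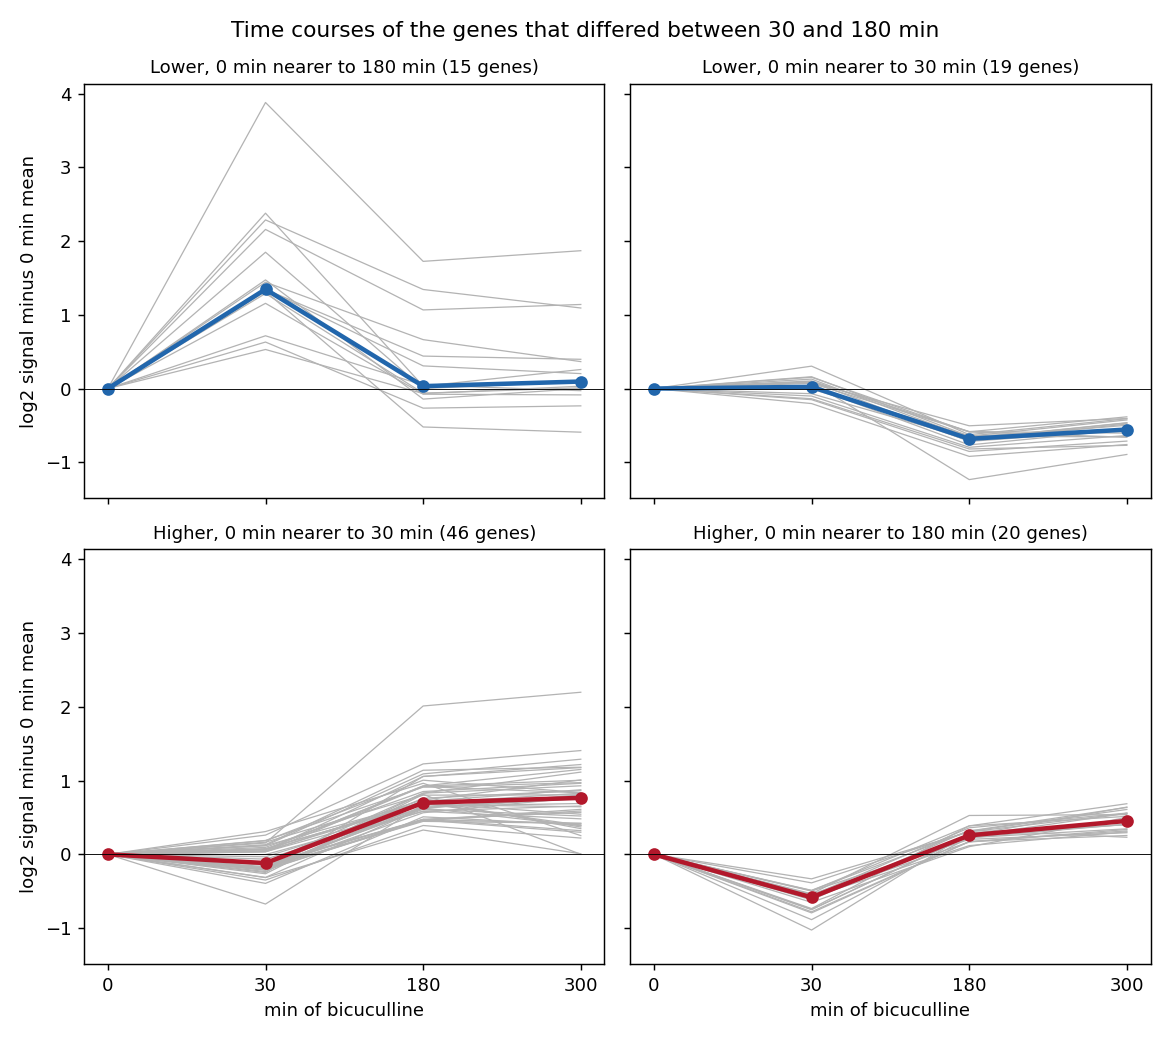
Mean log2 signal of each of the 100 genes relative to its own 0 min mean (y axis) at each time in minutes (x axis), in 4 panels by direction and by which time the 0 min mean lay nearer to. Grey lines are genes and coloured lines are medians. The median of the 15 genes at upper left peaks at 1.35 at 30 min, and that of the 20 genes at lower right dips to −0.58 at 30 min.

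The 20 higher genes with 0 min nearer to 180 min held 7 long noncoding RNA genes, 3 microRNA genes and 10 protein-coding genes. Malat1, a noncoding RNA of nuclear speckles, had signals of 9.28 and 9.33 at 30 min and 10.62 and 9.99 at 180 min (1.00 ± 0.17 SE, limma adjusted p = 0.0143), and those of 0 min were 10.01 and 10.09. Meg3 went from 9.87 and 10.16 to 11.17 and 10.80 (0.97 ± 0.17 SE), with 10.96 and 10.66 at 0 min, Rian from 4.78 and 4.94 to 5.84 and 5.90 (1.01 ± 0.14 SE) and Snhg11 from 6.03 and 6.32 to 7.50 and 6.97 (1.06 ± 0.20 SE). In each, the 30 min arrays were the lowest of all 8. Another cluster of Snhg11 had a change of 0.48, and Malat1 and Meg3 lost the call without 30 min replicate 1 (limma adjusted p = 0.182 and 0.329). The noncoding RNA gene Firre (0.76) and 2 unnamed loci were the rest of the long noncoding genes.

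Among the 10 protein-coding genes of these 20, Clk4, a kinase gene whose product phosphorylates SR splicing factors, went from 6.26 and 6.17 to 7.05 and 6.98 (0.80 ± 0.12 SE, limma adjusted p = 0.0118), with 6.79 and 6.61 at 0 min. Luc7l3, a U1-associated splicing factor gene, went from 7.72 and 7.74 to 8.45 and 8.47 (0.73 ± 0.12 SE), and Ccnl2, a cyclin gene of splicing, from 6.35 and 6.21 to 6.87 and 6.96 (0.64 ± 0.12 SE). The spliceosome gene Cwc22 (0.70), Paxbp1 (0.88), Leng8 (0.92), Taf1d (0.70), Wsb1 (0.84) and Rgs11 (0.77) moved the same way. Of 33 measured splicing factor and Clk kinase genes, Clk4 was the 1 that passed, and the median was 0.10. Luc7l3, Ccnl2 and Cwc22 were not on that list. For Cwc22, Taf1d and Scarna17, some clusters had the same values as another cluster of the same gene, so these clusters are not separate measurements. A differing cluster of Cwc22 had a change of 0.53, and the other clusters of Taf1d had changes of 0.31 to 0.78.

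Amy1, an amylase gene, went from 4.90 and 5.03 to 6.20 and 6.37 (1.32 ± 0.14 SE, limma adjusted p = 3.53e-04). Its 0 min arrays were 5.88 and 6.11. Whether its probes also match other amylase genes was not tested.

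By kind of gene, 52 of 18556 protein-coding genes were higher and 33 lower, 8 of 675 long noncoding RNA genes were higher and 0 lower, and 4 of 297 microRNA genes were higher and 1 lower. The median log2 changes were −0.01, 0.03 and 0.09. The 4 higher microRNA genes, Meg3 and Rian all lie in the Dlk1-Dio3 interval, an imprinted domain whose noncoding RNAs and microRNAs are read from the maternal chromosome. The interval was singled out after its values were seen. Of its 47 measured genes, 6 were higher and 0 lower, beside 0.331% and 0.171% of all genes. A change above 0 was seen in 43 of them, beside 48.1% of all genes, and their median was 0.46. These genes lie in 1 domain and are not replicates of one another. Relative to 0 min the median of the 47 genes was −0.23 at 30 min and 0.26 at 300 min.

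The mature sequences of the microRNA genes that passed are shown to set their seeds side by side, with bases 2 to 8 in capitals. They are from RefSeq, on assembly GRCm38.p6. The 8 sequences had 8 different seeds.
mmu-miR-495-5p (chr12:109718757-109718779, plus strand): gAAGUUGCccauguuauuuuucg
mmu-miR-495-3p (chr12:109718795-109718816, plus strand): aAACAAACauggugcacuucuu
mmu-miR-539-5p (chr12:109728136-109728157, plus strand): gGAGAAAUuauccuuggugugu
mmu-miR-154-5p (chr12:109738438-109738459, plus strand): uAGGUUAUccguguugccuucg
mmu-miR-154-3p (chr12:109738474-109738495, plus strand): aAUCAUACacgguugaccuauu
mmu-miR-377-5p (chr12:109740515-109740536, plus strand): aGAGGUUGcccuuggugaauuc
mmu-miR-377-3p (chr12:109740553-109740574, plus strand): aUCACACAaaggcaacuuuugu
mmu-miR-568 (chr16:43640665-43640684, plus strand): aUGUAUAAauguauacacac

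Array probes at a microRNA gene cover the hairpin and its neighbourhood, so these values cannot tell a mature microRNA from its precursor. Whether any mature microRNA changed was not measured. Mir377 had signals of 3.42 and 3.93 at 30 min and 5.35 and 4.69 at 180 min (1.35 ± 0.22 SE, limma adjusted p = 0.0137), and Mir539 of 4.17 and 4.27, then 5.77 and 4.92 (1.12 ± 0.21 SE). For both, the 30 min arrays lay below the background mark of 4.47 and the 180 min arrays above it. Mir495 went from 2.67 and 2.65 to 3.76 and 3.79 (1.11 ± 0.12 SE, limma adjusted p = 3.58e-04) and Mir154 from 3.23 and 3.55 to 4.49 and 4.20 (0.95 ± 0.16 SE). All of these arrays lay below the mark but 1, the Mir154 array at 4.49. Of the 40 microRNA genes of the interval 19 had a mean above the mark, and 36 had a change above 0, with a median of 0.46. Of 257 microRNA genes elsewhere, 0 were higher and 1, Mir568, was lower (limma, adjusted p under 0.05), with a median of 0.07 and 68.5% above 0, beside 48.1% of all genes.

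Of 30 measured immediate-early transcription factors and regulators, 10 fell, 1 rose (Fosl2) and 19 did not pass, with a median log2 change of −0.23. The count of lower members was 5 without 30 min replicate 1, 6 without 30 min replicate 2 and 7 without 180 min replicate 2. Of 27 delayed activity-regulated genes, 11 rose, none fell and the median was 0.42. The 11 were Lipg, Pcsk1, Penk, Bdnf, Gpr3, Grasp, Inhba, Nrn1, Acan, Nptx2 and Scg2, and the other 16 had changes from 0.03 upward. The count of higher members was 7 without 30 min replicate 1, 5 without 30 min replicate 2 and 5 without 180 min replicate 2. Over all genes, 0.331% were higher and 0.171% lower. The lists were chosen with results of these arrays known and are no independent evidence of direction.

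Lists with mixed directions came next. Of 23 rapid effector genes, Homer1, Per1, Sgk1 and Rgs2 rose and Arc and Gadd45g fell (median 0.10). Of 21 feedback inhibitors of MAP kinase signalling, Spry2 and Rgs2 rose and Dusp1 and Dusp6 fell (median 0.15). Of 9 Gadd45, Btg and Tob genes, Btg2, Gadd45g and Tob1 fell (median −0.29). Of 22 genes of the TGF-beta and activin pathway, the ligand subunit gene Inhba rose and the receptor gene Tgfbr1 fell (median −0.01). Without 30 min replicate 1, the counts of these first 3 lists were 0 higher and 1 lower each.

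Other lists held at most 1 gene that passed, and over all genes 0.502% passed. At that share a list of this size may well hold none, so these counts do not show that a list stayed unchanged. Per1 was the 1 of 19 clock genes, Slc16a1 (0.65), a lactate transporter gene, the 1 of 20 genes of glycolysis and lactate, Acan the 1 of 26 matrix genes, Kmt2c the 1 of 34 chromatin enzyme genes and Tnrc6b the 1 of 17 microRNA processing genes. No member passed among 16 genes of inhibitory synapses (median 0.00), 34 potassium channel genes (−0.08), 23 sodium, calcium and HCN channel genes (−0.22), 25 synaptic vesicle genes (−0.02) and 36 axon guidance genes (−0.10). The same was so for 19 NF-kappaB and cytokine genes (0.17), 33 genes of RNA polymerase II and Mediator (−0.03) and 20 cholesterol synthesis genes (−0.15). Lists of respiratory chain, ribosomal protein, heat shock, ER stress and p53 genes had medians from −0.04 to 0.02 and no member that passed.

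**Figure D5:**
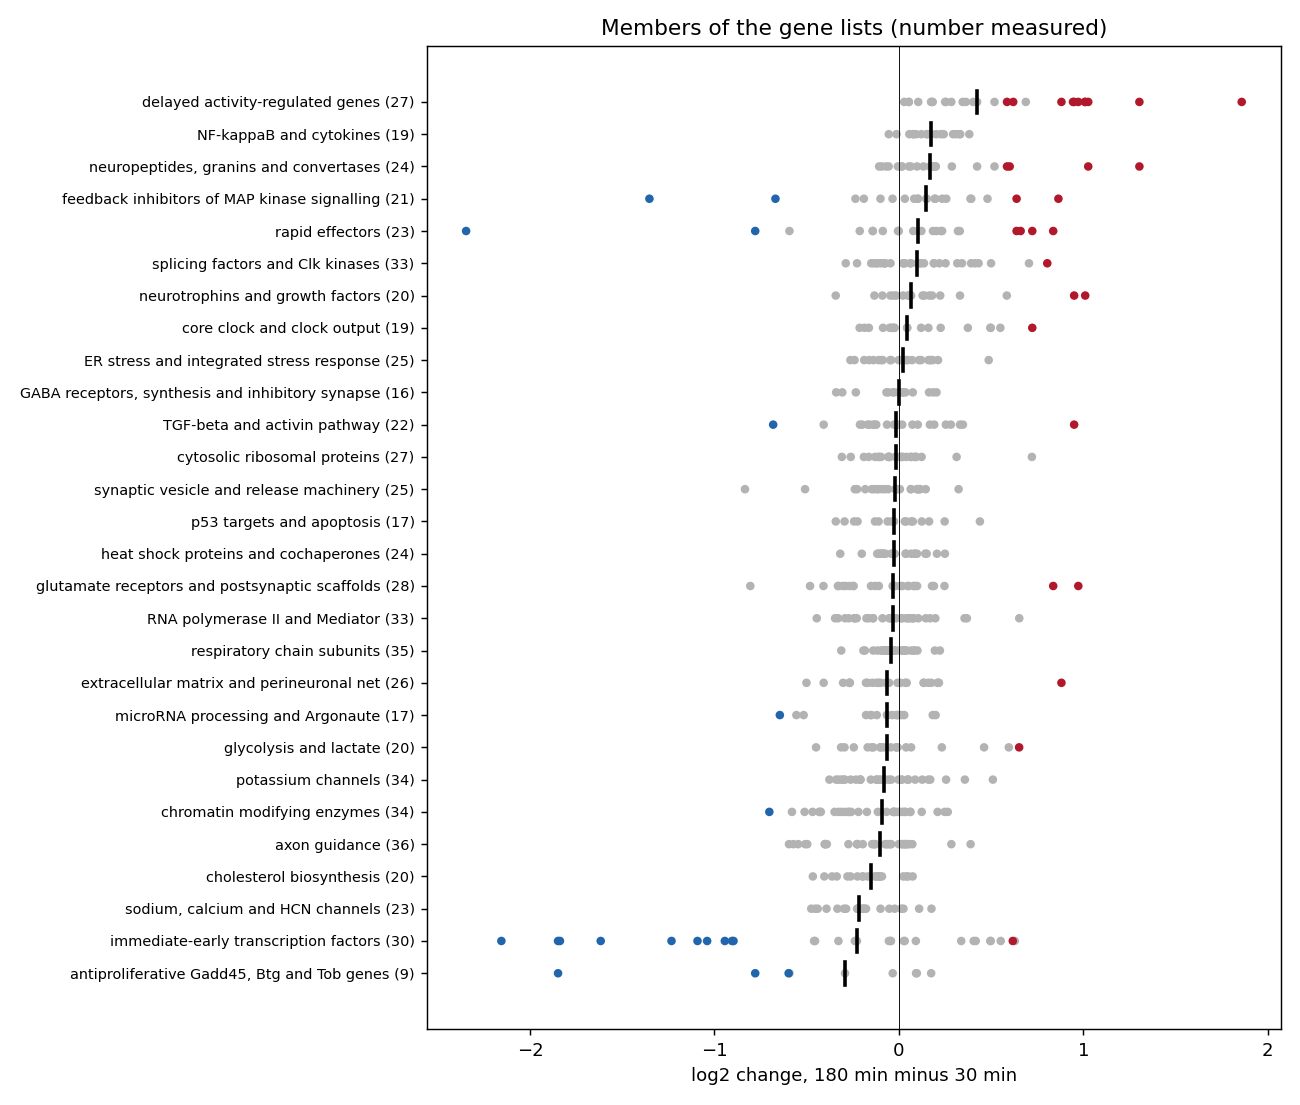
Log2 change, 180 min minus 30 min (x axis), of each measured member of the 28 gene lists (rows, with the number measured in brackets). Red and blue points are members that were higher or lower (limma, adjusted p under 0.05), grey points did not pass and black ticks are list medians. The ticks run from −0.29 for the Gadd45, Btg and Tob genes to 0.42 for the delayed genes.

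The means at 0 and 300 min use no array of the times compared and were used to ask where the genes that passed ended. The replicate spread at 0 and 300 min did enter the variance of each gene, which served both tests. Counts of these genes that passed between 0 and 300 min are therefore no independent check of how the genes were chosen. Of the 66 higher genes, 23 were higher at 300 than at 0 min (limma, beside 0.226% of all genes) and 0 were lower (0.0602% of all genes). All 66 had a 300 min mean above the 0 min mean, as did 49.4% of all genes. The median change of the 66 genes from 0 to 300 min was 0.58. Lipg (2.20), Fezf2 (1.41), Grasp (1.29), Gpr3 (1.22), Pcsk1 and Bdnf (1.18 each) led the 23. All 23 belonged to the 46 genes whose 0 min mean lay nearer to 30 min, and none to the other 20. That split is largely fixed by the grouping, since both it and the change from 0 to 300 min use the 0 min arrays. The 23 became 11 without 0 min replicate 1, 9 without 0 min replicate 2 and 15 without 300 min replicate 1.

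Of the 34 lower genes, Npas4 (1.87), Nr4a1 (1.14) and Fos (1.09) were higher at 300 than at 0 min, and Tgfbr1 (−0.77), Trps1 (−0.76), Kmt2c (−0.71), Prox1 (−0.66) and Tnrc6b (−0.65) were lower (limma, adjusted p under 0.05). The count of 5 lower genes was 0 without 0 min replicate 1 or 300 min replicate 1 and 2 without 0 min replicate 2 or 300 min replicate 2. The 300 min mean lay nearer to the 180 than to the 30 min mean in 62 of the 66 higher and in all 34 lower genes, beside 52.9% of all genes. This count uses the same 30 and 180 min arrays that chose the genes. Between 180 and 300 min, 0 genes passed (limma, smallest adjusted p = 0.529), and 1141 had an unadjusted p under 0.05, beside 2086 between 30 and 180 min. With no change at all, a share of 0.05 of the 19938 genes would on average have such a p, so these counts are not counts of changed genes.

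Promoters of the genes that changed were searched for short motifs on both strands of the RefSeq windows from 250 bases before to 50 bases after each start site (assembly GRCm38.p6). Windows were found for 27 of the 34 lower and 48 of the 66 higher genes and for 15614 of the genes tested. The full cyclic AMP response element TGACGTCA, the site of CREB proteins, was in a window of 2 lower genes (7.41%) and 6 higher genes (12.5%), beside 2.72% of all genes. The lower genes were Btg2 and Dusp1, and the higher genes Clk4, Kif18a, Meg3, Pcsk1, Scg2 and Wsb1. The windows of Btg2, Dusp1, Pcsk1, Scg2 and Clk4 are printed because they show the element in genes that fell after a peak at 30 min, rose late or were below 0 min at 30 min, with the element in capitals.
Btg2 (chr1:134079106-134079405, minus strand): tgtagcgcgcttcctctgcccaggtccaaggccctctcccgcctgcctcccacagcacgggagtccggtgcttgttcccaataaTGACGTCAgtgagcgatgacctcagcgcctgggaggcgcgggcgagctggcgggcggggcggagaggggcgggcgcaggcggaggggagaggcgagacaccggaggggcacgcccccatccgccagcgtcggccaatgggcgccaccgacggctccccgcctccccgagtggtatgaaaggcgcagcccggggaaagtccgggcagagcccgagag
Dusp1 (chr17:26508423-26508722, minus strand): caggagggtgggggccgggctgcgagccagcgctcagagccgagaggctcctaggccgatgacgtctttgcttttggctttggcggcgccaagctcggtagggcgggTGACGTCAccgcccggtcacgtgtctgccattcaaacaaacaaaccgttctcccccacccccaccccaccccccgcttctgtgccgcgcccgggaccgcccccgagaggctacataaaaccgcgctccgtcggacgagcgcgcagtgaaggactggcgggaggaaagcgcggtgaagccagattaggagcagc
Pcsk1 (chr13:75089607-75089906, plus strand): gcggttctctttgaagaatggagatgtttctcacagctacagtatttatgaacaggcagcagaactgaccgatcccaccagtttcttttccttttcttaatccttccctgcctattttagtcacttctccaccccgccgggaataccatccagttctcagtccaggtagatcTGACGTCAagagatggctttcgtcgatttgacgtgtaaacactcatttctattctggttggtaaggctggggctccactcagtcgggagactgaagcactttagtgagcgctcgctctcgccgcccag
Scg2 (chr1:79439977-79440276, minus strand): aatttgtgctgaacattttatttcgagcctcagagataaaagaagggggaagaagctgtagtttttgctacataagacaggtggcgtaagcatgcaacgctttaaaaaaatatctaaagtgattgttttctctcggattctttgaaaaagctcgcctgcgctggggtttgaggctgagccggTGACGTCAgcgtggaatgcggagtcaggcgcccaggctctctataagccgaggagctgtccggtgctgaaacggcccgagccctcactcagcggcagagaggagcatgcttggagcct
Clk4 (chr11:51262864-51263163, plus strand): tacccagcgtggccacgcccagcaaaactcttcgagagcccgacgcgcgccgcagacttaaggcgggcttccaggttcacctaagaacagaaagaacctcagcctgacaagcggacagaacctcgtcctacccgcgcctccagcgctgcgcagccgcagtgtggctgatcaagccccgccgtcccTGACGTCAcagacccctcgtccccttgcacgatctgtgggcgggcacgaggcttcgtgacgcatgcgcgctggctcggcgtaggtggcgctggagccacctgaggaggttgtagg

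Counted from the start site, the element began at −166 in Btg2, −143 in Dusp1, −78 in Pcsk1, −68 in Scg2 and −65 in Clk4. Its shorter core TGACG, which also lies within the full element, was in 51.9% of lower and 52.1% of higher genes, beside 28.0% of all genes. In the lower genes with a peak at 30 min it was in 9 of 12. The Egr site GCGNGGGCG was in 33.3% of lower and 14.6% of higher genes, beside 9.32% of all genes, and 7 of the 9 lower genes that held it had a 0 min mean nearer to 30 min. The AP-1 site TGANTCA was in none of the 27 lower and 5 of the 48 higher genes (10.4%), beside 8.08% of all genes. The CArG box was in 1 lower and 1 higher gene, beside 1.63% of all genes. The TATA box TATAAA was in 25.9% of lower and 18.8% of higher genes, beside 13.6% of all genes. For the clock E-box CACGTG these shares were 18.5% and 16.7%, beside 9.5%. Genes with several windows had more chances of a match, and a match is a run of letters, not a measured binding site.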

How the data were processed

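Total RNA was prepared with the Qiagen RNeasy kit and, after biotin labelling, measured on 8 Affymetrix Mouse Gene ST 1.0 arrays, per the labels' protocols. The values the authors deposited are log2 signals per transcript cluster, a base read from their range. How background was corrected, probes summarised and arrays normalized, the software and the build are not given in the sources used here, though these steps set the size of every change. Of 35399 rows, 21789 had 1 gene symbol, 1621 several and 11989 none, and 21698 matched RefSeq GRCm38.p6. The brightest cluster stood for each of 999 genes with several. A mean per time was fitted to all 8 arrays with limma 3.58.1 in R 4.3.3 (lmFit, eBayes, 4 residual degrees of freedom), two-sided, with p-values adjusted by Benjamini-Hochberg over 19938 genes and called under 0.05. SE is the moderated standard error. The fit was tested on simulated data. Genes named are the 15 largest changes each way that passed, without overlap between arrays and without unnamed loci, a panel, and up to 4 members of each list, and others where they passed. The members and lists were chosen with earlier results of these data known. Alternatives were other normalizations, filters, rows, variance priors, a replicate block, a span correction and each array left out.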

Additional observations from a re-analysis of the deposited data

How the results depend on the processing

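The 100 genes that differed between 30 and 180 min (66 higher, 34 lower, limma) became 55 (31 higher, 24 lower) with only the 4 arrays of the 2 times, 156 (91 higher, 65 lower) with a trended and robust variance prior, and 9 (2 higher, 7 lower) when all rows were tested. In that last fit the prior had 3.72 degrees of freedom, in place of 10.1. Without any 1 of the 8 arrays the count ran from 17 to 93, with 10 to 70 higher and 7 to 40 lower. Leaving out replicate 1 of 30 min gave 17, replicate 2 of 30 min gave 26 and replicate 1 of 180 min gave 60, each fit having fewer residual degrees of freedom, and 13 genes were lower without 180 min replicate 2. Quantile normalization gave 103, centring each array on its median 82 (48 higher, 34 lower), leaving out dim genes 126, the mean of clusters 100 and the span correction 96. None of the 100 genes changed direction under these alternatives. Of the 66 higher genes, 23 were also higher at 300 than at 0 min, and 9 to 17 without any 1 array of those times. The 5 of the 34 lower genes that were lower there became 0 to 2.

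No pairing of arrays by replicate number was seen: the correlations of deviations from the time means ran from −0.0941 to 0.0922 over the pairs of times. A pairing that touches few genes would not show in correlations over all genes. With the replicate number as a block, 87 genes passed (57 higher, 30 lower), 83 of them among the 100. With the block and the span correction 89 passed.

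With 2 arrays per time and signals near background for the microRNA genes, small changes and changes of dim genes could not be measured firmly.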
